A study of Mus musculus with 6 samples.

Results

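The lymphoid priming genes comprised 9 genes chosen by name, Dntt, Rag1, Rag2, Il7r, Ikzf1, Satb1, Notch1, Ebf1 and Tcf3, which earlier work on blood formation ties to the first steps from a stem cell towards B and T cells. All 9 were present among the 27198 genes with a count in hematopoietic stem cells (HSCs), and 7 of them had enough counts to be tested. HSCs, the bone marrow cells that sustain every blood lineage, came from control (Ctrl) mice and from animals treated long term with ferulic acid (l-FA), a plant phenolic compound, and their RNA was sequenced after sorting, in 3 libraries per group. The animals of both groups were wild-type male C57BL/6 mice aged 8 to 10 weeks. The l-FA-treated mice received ferulic acid by intraperitoneal injection at 50 mg/kg each day for 30 days, and Ctrl mice received the solvent. The cells of both groups were gated as Lineage-, Sca-1+, c-Kit+, CD34- and CD135-, and the number of mice behind a library was not stated in the sources used here. Because nothing says that libraries of a group came from separate animals, the p-values below measure the spread between these libraries, which may be technical.

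Lymphoid development starts while cells are still multipotent, when progenitors begin to transcribe a few lymphoid genes at low levels, a state called lymphoid priming. Rag1 and Rag2 form the recombinase that cuts antigen receptor genes, and Dntt encodes terminal deoxynucleotidyl transferase, which adds untemplated bases at the cut ends. Il7r encodes the receptor through which interleukin 7 sustains lymphoid progenitors. Ikzf1 (Ikaros), Satb1, Tcf3 (the E proteins E12 and E47) and Ebf1 are nuclear factors of lymphoid or B cell development, and Notch1 is the receptor that commits progenitors to the T lineage.

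E proteins bind the E box, CANNTG, so the stretches upstream of both recombinase genes, of the transferase and of the receptor chain are shown to let the letters be read beside the values of Tcf3 and its partners. They are the 250 bases before each RefSeq start on GRCm38.p6, 5′ to 3′ on the gene's strand, with every E box in capitals. The build differs from that of the expression table, GRCm39. The windows lie at chr19:41029025-41029274 (plus strand) for Dntt, chr2:101624462-101624711 (plus strand) for Rag2, chr2:101649533-101649782 (minus strand) for Rag1 and chr15:9529877-9530126 (minus strand) for Il7r.
Dntt: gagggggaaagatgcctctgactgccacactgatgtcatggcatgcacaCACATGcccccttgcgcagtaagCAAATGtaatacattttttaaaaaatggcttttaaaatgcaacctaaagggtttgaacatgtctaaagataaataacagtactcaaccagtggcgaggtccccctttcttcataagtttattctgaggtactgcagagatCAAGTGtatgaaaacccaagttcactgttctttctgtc
Rag2: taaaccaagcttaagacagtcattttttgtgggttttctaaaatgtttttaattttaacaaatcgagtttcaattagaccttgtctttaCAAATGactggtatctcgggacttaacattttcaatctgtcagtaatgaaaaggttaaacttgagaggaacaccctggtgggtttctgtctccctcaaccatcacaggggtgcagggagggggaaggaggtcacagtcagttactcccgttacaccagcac
Rag1: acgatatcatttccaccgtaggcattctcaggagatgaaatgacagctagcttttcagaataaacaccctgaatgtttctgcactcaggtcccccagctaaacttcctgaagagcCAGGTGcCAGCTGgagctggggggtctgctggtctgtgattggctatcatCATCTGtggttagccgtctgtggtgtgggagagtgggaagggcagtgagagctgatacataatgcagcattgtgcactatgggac
Il7r: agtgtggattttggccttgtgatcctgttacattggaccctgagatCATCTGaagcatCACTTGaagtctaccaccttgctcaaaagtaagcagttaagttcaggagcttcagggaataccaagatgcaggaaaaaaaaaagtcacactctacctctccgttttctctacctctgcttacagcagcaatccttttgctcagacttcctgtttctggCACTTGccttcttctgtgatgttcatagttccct

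The Dntt and Il7r stretches held 3 E boxes each. The Rag1 stretch held CAGGTG and CAGCTG, both bound well by E proteins, with starts 7 bases apart, plus CATCTG. The Rag2 stretch held 1. The motif was searched on both strands, which read alike for CANNTG, and in windows that run 50 bases past the start it occurred in 72.3% of the 32851 promoters of the RefSeq table, so its presence is common. CAGGTG occurred in 20.2% and CAGCTG in 16.3% of those windows. These matches describe letters and not binding.

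The 9 genes spanned a wide range of expression. On the authors' FPKM scale, which divides counts by gene length and library total, the order of the Ctrl means was Dntt (137 FPKM), Tcf3 (27.4), Ikzf1 (3.58), Notch1 (3.01), Satb1 (2.43), Rag2 (1.31), Il7r (1.24), Ebf1 (0.0287) and Rag1 (0.0231). Dntt stood at the 98.3rd percentile of the tested genes in Ctrl and at the 99.0th in l-FA, whereas Rag1 and Ebf1 stood below the 2nd percentile in both groups. In Ctrl the ranges of 3 neighbouring pairs overlapped, Ikzf1 with Notch1, Rag2 with Il7r and Ebf1 with Rag1. In l-FA the order became Dntt (202 FPKM), Tcf3 (24.7), Satb1 (3.37), Notch1 (2.85), Rag2 (2.81), Ikzf1 (2.38), Il7r (1.39), Ebf1 (0.0344) and Rag1 (0.0229), and only Notch1 with Rag2 and Ebf1 with Rag1 overlapped. The gene lengths implied by the FPKM values ran from 3254 bases for Dntt to 33133 for Satb1, and the order holds for those lengths.

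**Figure D1:**
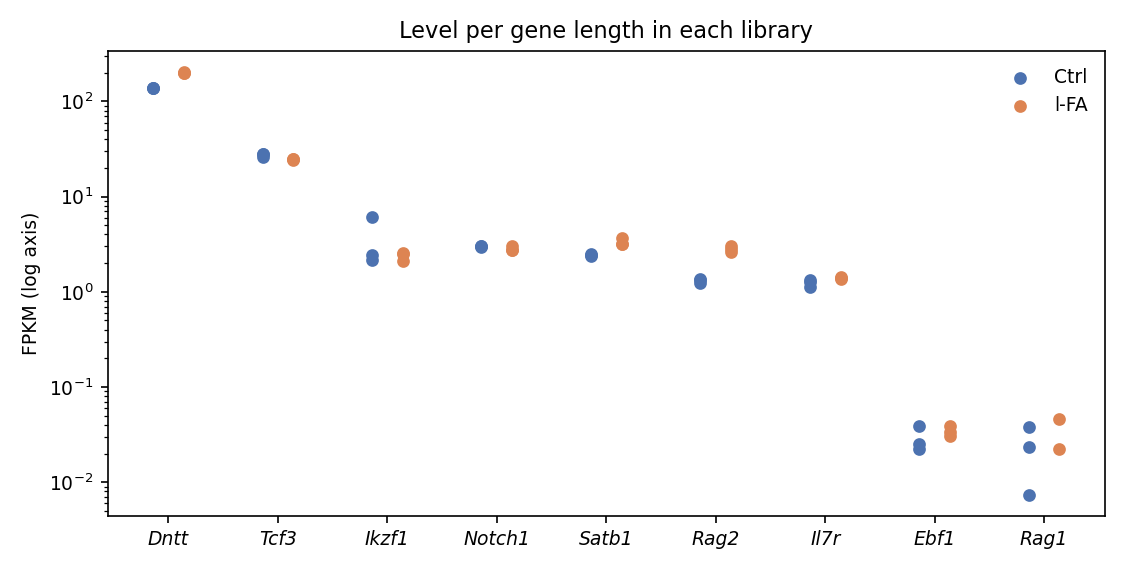
FPKM on a log axis for each of the 9 genes, ordered by the Ctrl mean, with 1 point per library (3 Ctrl, 3 l-FA). Dntt lies near 137 in Ctrl and 202 in l-FA, and Ebf1 and Rag1 lie under 0.05 in every library. The Rag1 value of l-FA replicate 3 is 0 and cannot be drawn on a log axis.

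Relative to Ctrl, 3 of the 7 tested genes rose in l-FA HSCs (Dntt, Rag2 and Satb1), 2 fell (Notch1 and Tcf3) and 2 did not pass an adjusted p of 0.05 (Il7r and Ikzf1). In this experiment 50.5% of all 16520 tested genes passed that threshold, 25.5% higher and 25.0% lower, and a count of 5 among 7 is read against that background. With the further requirement of a change over 2-fold, Rag2 alone passed, where 11.8% of all tested genes did (6.68% higher and 5.10% lower). The groups did not overlap for Dntt, Rag2, Satb1, Notch1 and Tcf3, and they did not overlap for 60.3% of all tested genes (30.4% higher and 29.9% lower). The median log2 fold change was 0.09 over the 7 genes and 0.0035 over all tested genes. RNA of a cell population was measured, so a change in the share of cells that express a gene and a change in RNA per cell cannot be told apart.

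**Figure D2:**
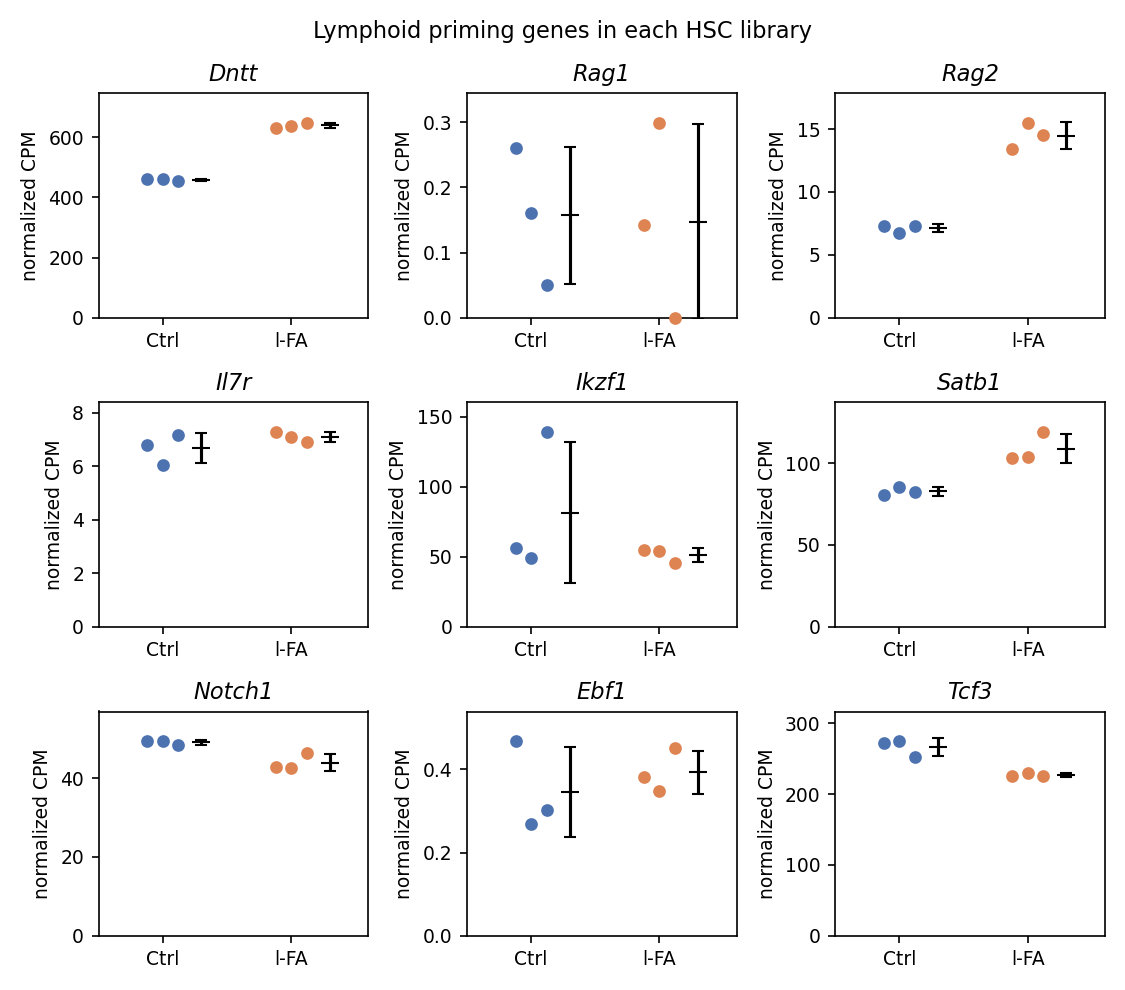
Normalized CPM (linear axes that start at 0) of each gene in the 3 Ctrl and 3 l-FA libraries, with the mean and SD as a bar beside the points. Every l-FA point lies above every Ctrl point for Dntt, Rag2 and Satb1 and below for Notch1 and Tcf3, and 1 Ctrl library stands apart for Ikzf1.

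Dntt (ENSMUSG00000025014, chr19:41017714-41047964 in the table's coordinates) was the most abundant of the 9 genes. The Ctrl libraries held 8836, 8625 and 9058 counts of it, and the l-FA libraries 13288, 12779 and 12956. Every l-FA library lay above every Ctrl library. The mean level was 459 CPM ± 3.98 (SD, n = 3) in Ctrl against 640 CPM ± 8.22 (SD, n = 3) in l-FA, where normalized CPM are each gene's counts scaled to a common library size with TMM factors. The log2 fold change was 0.48 (SE 0.019, 95% interval 0.43 to 0.52, adjusted p = 1.29e-05 by edgeR's quasi-likelihood test), a rise of 1.39-fold.

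Rag2 (ENSMUSG00000032864, chr2:101455063-101462874), the subunit that reads chromatin and supports cutting by Rag1, showed the largest rise of the 7. It had 140, 126 and 145 counts in Ctrl and 281, 311 and 291 in l-FA, with no overlap between the groups. The CPM rose from 7.11 ± 0.308 to 14.5 ± 1.06 (SD, n = 3). The log2 fold change was 1.03 (SE 0.088, 95% interval 0.82 to 1.24, adjusted p = 0.000193). The change lay at the 2-fold limit and fell to 0.99 on the log2 scale without Ctrl replicate 2 or without l-FA replicate 2, with adjusted p-values of 0.00126 and 0.00109. Rag2 lies within the span of Iftap, which is on the other strand in the GENCODE M21 annotation, and whether the counting used strand was not stated. Iftap had 420 to 511 counts in Ctrl and 489 to 505 in l-FA, and its log2 fold change was 0.04 (SE 0.067, adjusted p = 0.683).

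Rag1 (ENSMUSG00000061311, chr2:101468627-101479846), the catalytic subunit, was close to the detection floor. Its counts were 5, 3 and 1 in Ctrl and 3, 6 and 0 in l-FA, and a count of 0 allows up to 3. It was not tested, since too few libraries reached about 10 counts. Summed over the groups it had 9 counts against 9, a ratio of l-FA over Ctrl of 0.947 after scaling (95% exact interval 0.333 to 2.69, which covers counting error only). A rise of the size seen for Rag2 lies within that interval, so a difference was not detectable at this depth. Rag1 also lies within the span of Iftap.

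Around these 3 genes, the other genes of V(D)J joining and its repair by non-homologous end joining moved in both directions. Of the 13 others that were tested, 4 rose and 2 fell, where 25.5% of all tested genes rose and 25.0% fell. Paxx, a factor that steadies the repair complex, rose by a log2 fold change of 0.48 (SE 0.069, adjusted p = 0.00151), with 267 to 319 counts in Ctrl and 419 to 445 in l-FA. Xrcc5, which encodes Ku80, rose by 0.42 (SE 0.044), and Dclre1c, which encodes the hairpin-opening nuclease Artemis, rose by 0.45 (SE 0.14). Nhej1, which encodes XLF, fell by 0.38 (SE 0.088), and Prkdc, the DNA-dependent protein kinase, fell by 0.21 (SE 0.038) on the same scale. The DNA-bending cofactors of the recombinase, Hmgb1 and Hmgb2, had log2 fold changes of 0.00 and -0.04 and did not pass the test. Including Dntt and Rag2, the median of this list was 0.0034. Past 2-fold, 2 genes of the list were higher, Rag2 and a gene not named here with a mean under 50 normalized counts. Xrcc5 and Dclre1c lie outside the rule for named genes and were chosen after their values were seen, as were Hmgb1 and Hmgb2.

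Il7r (ENSMUSG00000003882, chr15:9505874-9530262) had 130, 113 and 143 counts in Ctrl and 153, 142 and 138 in l-FA. The groups overlapped. Its CPM was 6.67 ± 0.568 in Ctrl against 7.09 ± 0.189 across l-FA libraries (SD, n = 3), with a log2 fold change of 0.09 (SE 0.097, 95% interval -0.14 to 0.32, adjusted p = 0.491). The interval does not hold a 2-fold change in either direction.

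Of the 13 other tested genes of interleukin 7 signalling, 7 rose and 1 fell, beside the 25.5% and 25.0% of all tested genes that did. Il2rg encodes the common gamma chain that pairs with the interleukin 7 receptor. It had 6375, 6418 and 6595 counts in Ctrl and 10351, 10120 and 9844 in l-FA, a log2 fold change of 0.57 (SE 0.024, adjusted p = 1.58e-05). Stat5b, a transcription factor activated by the receptor, rose by 0.40 (SE 0.027, adjusted p = 7.52e-05). Il7, the ligand itself, had 40 to 64 counts in Ctrl and 101 to 113 in l-FA and rose by 1.01 (SE 0.17, adjusted p = 0.00331). Foxo1, a factor known to activate Il7r transcription, fell by 0.62 (SE 0.14, adjusted p = 0.0104), from 140, 177 and 200 counts in Ctrl to 130, 117 and 108 in l-FA. The median of the 14 genes, Il7r included, was 0.25.

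Ikzf1 (ENSMUSG00000018654, chr11:11634980-11722926), the zinc finger factor that opens the lymphoid program, depended on a single library. Its counts were 1076, 917 and 2775 in Ctrl and 1156, 1078 and 915 in l-FA. Ctrl replicate 3 stood at more than any other library, and the remaining 5 lay between 915 and 1156. The CPM was 81.5 ± 50.2 in Ctrl against 51.5 ± 5.0 for l-FA (SD, n = 3), and the log2 fold change of -0.66 (SE 0.39, 95% interval -1.60 to 0.28, adjusted p = 0.207) did not pass. Without Ctrl replicate 3 it was -0.04 (SE 0.10, adjusted p = 0.807). Over all alternatives the adjusted p ran from 0.088 to 0.807.

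The same library was low for a close relative. Ikzf2 (Helios) had 473, 459 and 102 counts in Ctrl and 903, 830 and 649 in l-FA, a log2 fold change of 1.11 that did not pass (SE 0.52, adjusted p = 0.121), and without Ctrl replicate 3 it was 0.66 and did (SE 0.13, adjusted p = 0.0116). Ikzf5 (Pegasus) rose by 0.27 (SE 0.075, adjusted p = 0.0217), a call lost without l-FA replicate 3 (adjusted p = 0.0548). Ikzf4 (Eos) had 6, 11 and 28 counts in Ctrl and 44, 43 and 53 in l-FA, a log2 fold change of 1.56 (SE 0.45, adjusted p = 0.0258), a call lost in 4 of the fits that left out 1 library. Ikzf3 (Aiolos), a factor of later lymphoid stages, had 2 counts in all of Ctrl and 47 in all of l-FA, a ratio of 22.2 (95% exact counting interval 5.83 to 189).

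Satb1 (ENSMUSG00000023927, chr17:52043215-52140318), a chromatin organizer that promotes the lymphoid fate of stem cells, rose. Its counts were 1541, 1596 and 1638 in Ctrl and 2169, 2085 and 2381 in l-FA, and no l-FA library reached down to the Ctrl range. The CPM rose from 82.7 ± 2.65 to 109 ± 9.01 (SD, n = 3), with a log2 fold change of 0.40 (SE 0.064, 95% interval 0.24 to 0.55, adjusted p = 0.00237). Its span holds 6 other listed genes, none with more than 101 counts in a library.

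Among the subunits of the NuRD complex, through which Ikaros and SATB1 act on chromatin, Mbd3 fell by 0.38 (SE 0.070, adjusted p = 0.00422), Hdac2 by 0.31 (SE 0.031, adjusted p = 0.000327) and Chd4 by 0.14 (SE 0.034, adjusted p = 0.013) on the log2 scale. The call of Chd4 was lost without l-FA replicate 2 (adjusted p = 0.0629) or l-FA replicate 3 (adjusted p = 0.0583). Hdac1, which encodes the other deacetylase of the complex, rose by 0.09 (SE 0.026, adjusted p = 0.0232), a call lost with no low-count filter (adjusted p = 0.0545) and without Ctrl replicate 1 (adjusted p = 0.0517) or Ctrl replicate 3 (adjusted p = 0.0714). Of the 12 tested genes of these families and partners other than Ikzf1 and Satb1, 4 rose and 5 fell, against 25.5% and 25.0% of all tested genes. The median of the list with both was -0.0030.

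Notch1 (ENSMUSG00000026923, chr2:26347915-26406675) was slightly lower in l-FA. It had 949, 920 and 964 counts in Ctrl and 897, 854 and 928 in l-FA. The raw counts overlapped, since 928 exceeds 920, but the scaled values did not. The CPM was 49.0 ± 0.579 in Ctrl against 43.9 ± 2.20 for l-FA (SD, n = 3), which gave a log2 fold change of -0.16 (SE 0.049, 95% interval -0.28 to -0.04, adjusted p = 0.0338). The call was the least stable of the 7 genes. It was lost with upper-quartile scaling (adjusted p = 0.0563), and it was lost when any library other than l-FA replicate 3 was left out (adjusted p from 0.0521 to 0.129). At one end the gene overlaps 0610009E02Rik, a non-coding RNA with 6 to 18 counts in a library.

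The 27 other tested genes of the Notch pathway divided into 8 that rose, 6 that fell and 13 that did not pass. Over all tested genes 50.5% passed, 25.5% higher and 25.0% lower. Among the receptors, Notch2 rose from 1106, 965 and 1060 counts to 1584, 1540 and 1626, a log2 fold change of 0.52 (SE 0.055, adjusted p = 0.000414). Notch3 fell from 60, 28 and 43 counts to 7, 14 and 13, a log2 fold change of -2.01 (SE 0.38, adjusted p = 0.00464). Notch4 did not pass (1.06, SE 0.91, adjusted p = 0.375), and 1 library of each group had 3 counts of it. The receptors thus did not share a direction. Notch3 passed the low-count filter only through Ctrl.

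Among the modifiers of the receptor, Pofut1, the enzyme that adds fucose to Notch, fell by 0.70 (SE 0.14, adjusted p = 0.00523). Of the Fringe enzymes that extend this sugar, Rfng fell by 0.50 (SE 0.036, adjusted p = 9.73e-05), whereas Lfng had a log2 fold change of 0.49 (SE 0.15, adjusted p = 0.0344), a call lost with DESeq2 (adjusted p = 0.0637) and when Ctrl replicate 1 or 3 or l-FA replicate 2 or 3 was left out (adjusted p from 0.0896 to 0.0984). Among the nuclear factors, the coactivator Maml2 rose by 0.73 (SE 0.073, adjusted p = 0.00035), and Rbpj, the DNA-binding partner of cleaved Notch, rose by 0.44 (SE 0.056). Rbpj was chosen after its values were seen.

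Of the 4 tested targets, 2 fell, where 25.0% of all tested genes did. Nrarp, a target that feeds back on Notch signalling, had 142, 156 and 167 counts in Ctrl and 36, 39 and 56 in l-FA, with no overlap. Its log2 fold change was -1.90 (SE 0.19, adjusted p = 0.000338). Hes1, a classical target named here after its values were seen, had 31, 37 and 34 counts in Ctrl and 6, 10 and 10 in l-FA, a log2 fold change of -2.03 (SE 0.25, adjusted p = 0.000746). Hes1 passed the low-count filter only through Ctrl, so its place among the tested genes depends on its fall. The remaining targets, Hes5 and Hey1, had values of -0.25 (SE 0.22) and -0.13 (SE 0.45) and did not pass. The median log2 fold change of the 28 pathway genes was -0.13.

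**Figure D3:**
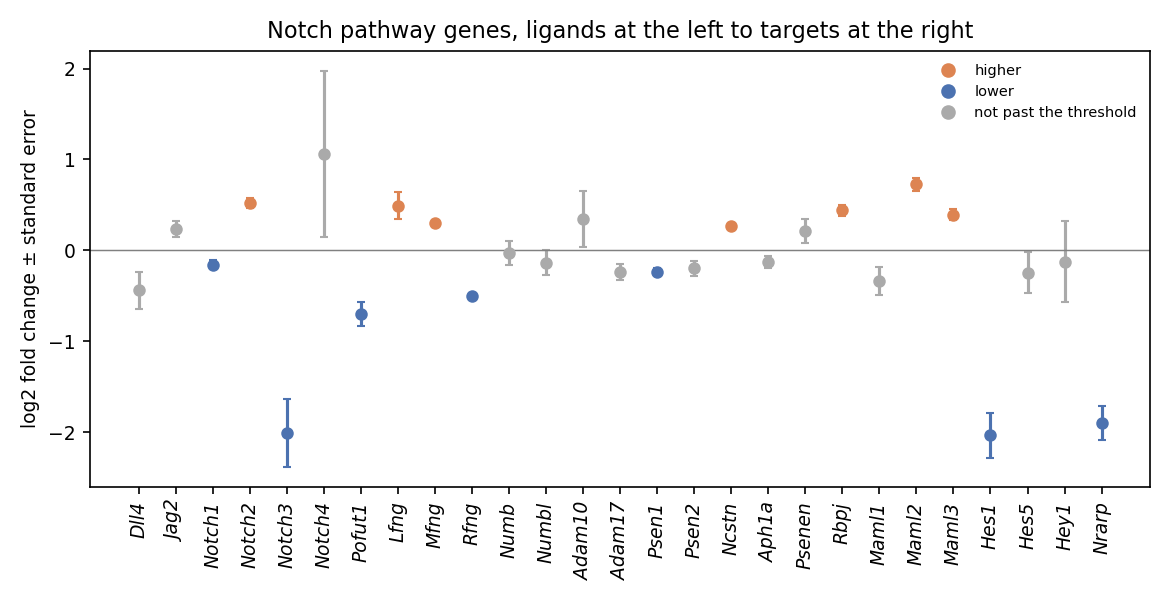
Log2 fold change (l-FA over Ctrl) with its standard error for 27 tested Notch pathway genes, ordered from ligands and receptors through modifiers, proteases and nuclear factors to targets. Colour gives the call at an adjusted p of 0.05. Notch3, Hes1 and Nrarp lie near -2, Notch1 at -0.16 and Notch2 at 0.52. Dll1, at 0 in every Ctrl library, is left out.

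Tcf3 (ENSMUSG00000020167, chr10:80245348-80269481) fell. It had 5231, 5137 and 5017 counts in Ctrl and 4743, 4619 and 4498 in l-FA, each l-FA library below each Ctrl library. The CPM went from 267 ± 12.9 to 227 ± 2.77 (SD, n = 3), which gave a log2 fold change of -0.23 (SE 0.038, 95% interval -0.32 to -0.14, adjusted p = 0.00272).

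The other E proteins moved in opposite directions. Tcf4 (E2-2), known for its part in plasmacytoid dendritic cells, rose by 0.54 (SE 0.11, adjusted p = 0.00612), from 1748, 2295 and 2023 counts to 3135, 2956 and 3261. Tcf12 (HEB), which supports T cell development, fell by 0.54 (SE 0.070, adjusted p = 0.000973), from 1272, 1242 and 1204 counts to 1001, 820 and 886. Id proteins bind E proteins and keep them off DNA. Id3 rose from 53, 54 and 50 counts to 135, 119 and 112, a log2 fold change of 1.14 (SE 0.11, adjusted p = 0.000358), while Id1 (0.32, SE 0.24, adjusted p = 0.307) and Id2 (0.14, SE 0.066, adjusted p = 0.129) did not pass. Summed per length, the E protein genes exceeded the Id genes by 6.10, 5.31 and 5.33 times in the Ctrl libraries and by 3.55, 3.79 and 3.39 times in the l-FA libraries, as ratios of FPKM sums. The ratio was lower in every l-FA library, and it was not tested.

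E proteins also pair with the stem cell factor Tal1 in a complex held together by Ldb1. Tal1 rose by 0.40 (SE 0.090, adjusted p = 0.0105), and Ldb1 fell by 0.78 (SE 0.071, adjusted p = 0.000245) on the log2 scale. In all, 4 of the 11 tested partners and relatives of Tcf3 rose and 2 fell, where 25.5% of all tested genes were higher and 25.0% lower.

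Ebf1 (ENSMUSG00000057098, chr11:44508144-44898918), the factor that specifies the B lineage, was near the floor. Its counts were 9, 5 and 6 in Ctrl and 8, 7 and 9 in l-FA, which overlap. It was not tested. The sums of 20 and 24 counts gave a ratio of 1.14 (95% exact counting interval 0.601 to 2.17). Pax5, its partner in B cell commitment, had 1 count in all 6 libraries.

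Of the 12 tested B lineage genes, 6 rose and 2 fell (25.5% and 25.0% of all tested genes), with a median log2 fold change of 0.27. Past 2-fold, 2 were higher and 2 lower. Cd22 and Fcrla had no count in l-FA, at least 7.44-fold and 4.58-fold lower against a floor of 3 counts per library. Both were chosen after their values were seen. The 2 higher ones were Blk, at 0 in Ctrl, and Spib, which was not tested when every library had to reach 10 counts. Cd22 and Fcrla passed the low-count filter only through Ctrl, and Blk only through l-FA. The place of these 3 among the tested genes thus depends on their change. Blnk, the adaptor of B cell receptor signalling, had 106, 123 and 136 counts in Ctrl and 241, 222 and 229 in l-FA, a log2 fold change of 0.84 (SE 0.10, adjusted p = 0.000739). Bach2, a repressor that keeps lymphoid progenitors from myeloid fates, rose by 0.52 (SE 0.13, adjusted p = 0.0158), a call lost without Ctrl replicate 3 (adjusted p = 0.053), and the surface protein Cd72 by 0.32 (SE 0.044, adjusted p = 0.00126). The B cell receptor subunit Cd79a had 16 to 33 counts in Ctrl and 20 to 31 in l-FA, with a log2 fold change of 0.0018 (SE 0.29, adjusted p = 0.997).

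Genes of early lymphoid and lymphoid-primed multipotent progenitors passed in 12 of 18 cases, 9 higher and 3 lower, where 50.5% of all tested genes passed, 25.5% higher and 25.0% lower. Their median log2 fold change was 0.07. Flt3, the cytokine receptor that marks lymphoid-primed progenitors, had 14568, 14232 and 15060 counts in Ctrl and 24368, 23986 and 23834 in l-FA, a log2 fold change of 0.64 (SE 0.018, adjusted p = 3.95e-06). Its protein, CD135, is the antigen that the gate excluded. Btla, an inhibitory receptor of lymphocytes, rose by 1.55 (SE 0.31, adjusted p = 0.00589), with Ctrl replicate 2 at 64 counts, below 172 and 149 in the other Ctrl libraries. Ccr9, a receptor used in homing to the thymus, rose by 1.03 (SE 0.16, adjusted p = 0.00236). Gfi1, a repressor used in both lymphoid and granulocyte development, fell from 470, 457 and 393 counts to 131, 110 and 117, a log2 fold change of -1.96 (SE 0.11, adjusted p = 4.65e-05). Spi1 (PU.1) fell by 0.38 (SE 0.059) and Myb by 0.36 (SE 0.021) on the same scale.

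T lineage genes passed in 8 of 9 tested cases, 7 higher and 1 lower, beside 50.5% of all tested genes (25.5% higher and 25.0% lower). The median log2 fold change of the list was 0.51. Of the 16 list genes present, only these 9 had enough counts to be tested. Cd8a, at 0 in l-FA, and Il2ra, at 0 in Ctrl, were not tested. Zap70, among the 7 that rose, had a log2 fold change of 2.64 (SE 0.32, adjusted p = 0.000782). This gene was chosen after its values were seen and was not tested when every library had to reach 10 counts. Cd4 had 48, 43 and 31 counts in Ctrl and 139, 137 and 162 in l-FA, a log2 fold change of 1.76 (SE 0.19, adjusted p = 0.000492). Cd247, the zeta chain of the T cell receptor, rose by 1.73 (SE 0.15, adjusted p = 0.000183). Tcf7, the factor induced by Notch1 at the start of T cell development, fell by 0.75 (SE 0.15, adjusted p = 0.00596), from 68, 81 and 96 counts to 50, 50 and 53.

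Counted once each and without the 9 genes themselves, 123 genes of the lymphoid lists, the natural killer and innate lymphoid list included, were tested. Of these 52 rose (42.3%) and 25 fell (20.3%), where 25.5% and 25.0% of all tested genes did. Their median log2 fold change was 0.14. The lists were chosen with earlier results of these data known. Some of these genes also passed the low-count filter only through the group where they were high. The shares are therefore a description, and their difference from all tested genes was not tested.

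**Figure D4:**
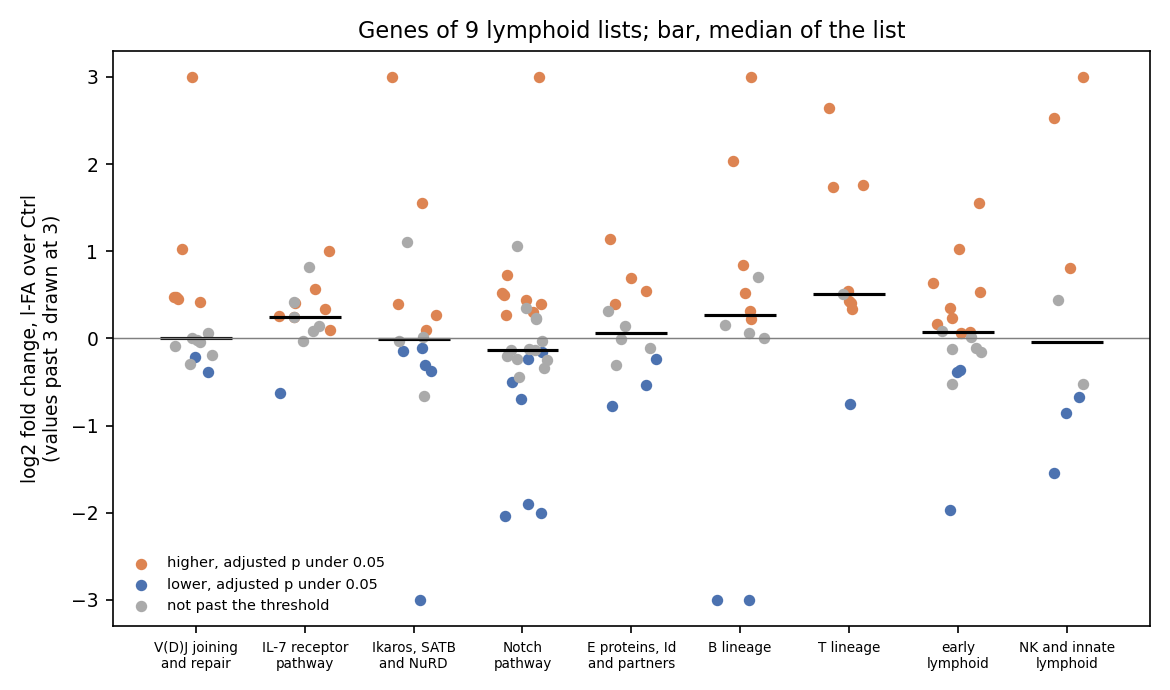
Log2 fold change (l-FA over Ctrl) of every tested gene of the 9 lymphoid lists, 1 point per gene, coloured by its call, with a bar at the median of each list. Values beyond 3 in either direction are drawn at 3. Medians run from -0.13 for the Notch pathway to 0.51 for the T lineage, and every list holds genes that rose and genes that fell.

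Markers of other cells moved between the groups as well, and their part in the results above was not tested. Summed CPM of the 10 neutrophil and monocyte markers was 23045 to 23982 in Ctrl and 6040 to 6342 in l-FA, with Ly6g at 0 in l-FA. Most of that sum was Mpo, with means of 18544 CPM in Ctrl and 4938 in l-FA. Of the 9 tested markers 8 were called lower and 1 higher, where 25.0% and 25.5% of all tested genes were. The sum over 8 mature B cell markers was 59.3 to 60.4 in Ctrl and 69.5 to 72.1 in l-FA, with Fcer2a at 0 in Ctrl and Ms4a1, Cr2 and Cd22 at 0 in l-FA. The 6 measured T cell markers summed to 3.11 to 3.96 in Ctrl and 6.98 to 8.61 in l-FA, mostly Cd4, with Cd8a and Trac at 0 in l-FA. The 3 measured plasmacytoid dendritic cell markers summed to 5.02 to 5.68 and 8.53 to 8.76, the 3 plasma cell markers to 51.7 to 119 and 108 to 114, and the 6 erythroid markers to 66.7 to 69.2 and 69.4 to 70.9. The plasmacytoid markers did not share a direction, since 2 were called higher, Ccr9 among them, and 1 lower, with 1 past 2-fold each way. The 12 HSC markers summed to 801 to 843 in Ctrl and 949 to 976 in l-FA. Transcripts of both antigens that the gate excluded were abundant, Cd34 at 1343 ± 18.4 CPM in Ctrl and 1579 ± 38.2 in l-FA and Flt3 at 759 ± 3.43 and 1183 ± 19.8 (SD, n = 3), and both rose, as did Kit by a log2 fold change of 0.12 and Ly6a by 0.77. The log2 fold change of Ly6a was 0.58 (SE 0.053) without Ctrl replicate 2 and 0.90 (SE 0.17) without Ctrl replicate 1. RNA of a gene and the protein at the surface need not match, and whether the libraries held cells outside the gate was not tested.

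Across scalings, filters, tools and libraries left out, Dntt kept a log2 fold change of 0.47 to 0.50, Rag2 of 0.99 to 1.09, Satb1 of 0.34 to 0.45 and Tcf3 of -0.28 to -0.21, each past the threshold in all 12 alternatives.

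**Figure D5:**
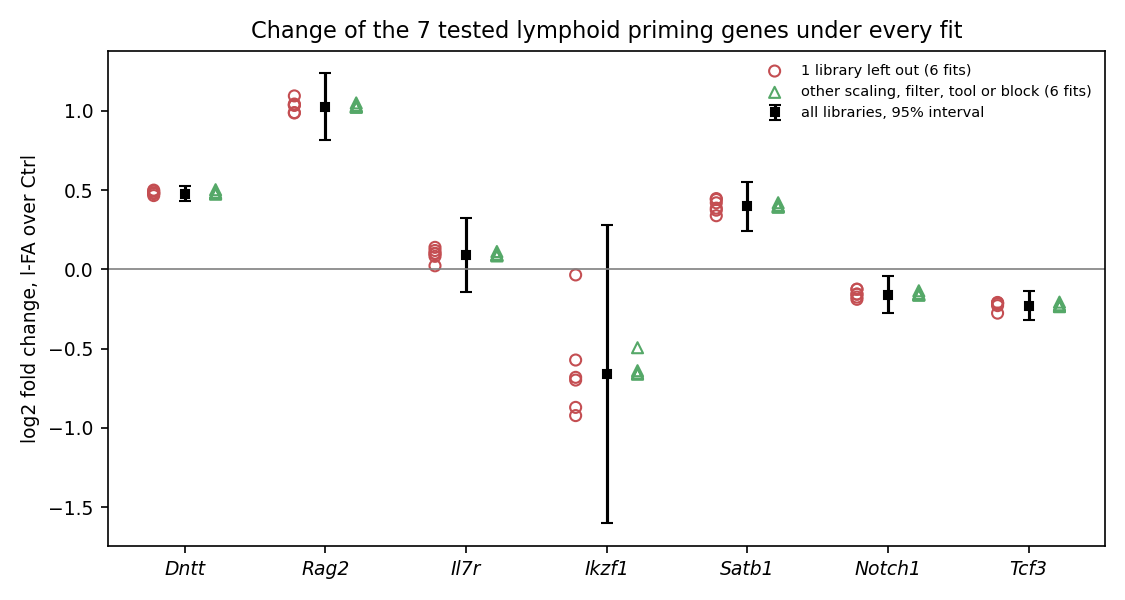
Log2 fold change (l-FA over Ctrl) of the 7 tested genes. Squares with bars are the fit on all libraries with its 95% interval, circles the 6 fits that leave out 1 library, and triangles the 6 fits with another scaling, filter, tool or a replicate block. The circles of Ikzf1 spread from -0.92 to -0.04, and those of Dntt, Rag2, Satb1 and Tcf3 stay on one side of 0.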

How the data were processed

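The deposited table gives, per library, raw counts of each gene as whole numbers and FPKM, which the authors made from them by gene length and library total. The submitters' processing notes name HISAT2, SAMtools 1.3.1, StringTie and edgeR and the build GRCm39, with no role or order. The counting tool, annotation release and strand setting are not given in the sources used here. Libraries held 19287735 to 20380610 counts. Reads without molecular identifiers are not independent molecules, so counting intervals cover counting error only.

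Samples were grouped by their labels. The test of the counts was edgeR's quasi-likelihood test (edgeR 4.0.16, R 4.3.3; TMM, filterByExpr, glmQLFit and glmQLFTest), and p-values were adjusted by Benjamini-Hochberg over 16520 genes that passed the filter, of 27198. A gene could pass that filter through 1 group alone, as Gzmb, Tbx21, Blk, Dll1, Ikzf3, Cd22, Fcrla, Hes1 and Notch3 did. Spib and Zap70 were not tested when every library had to reach 10 counts. The code was tested on simulated data. The study's thresholds (over 2-fold, adjusted p below 0.05) were used beside the p alone. DESeq2 1.42.0, the study's tool, was an alternative here, with RLE and upper-quartile scaling, other low-count filters, a replicate block and each library left out. No exact permutation test is given, since 3 against 3 libraries cannot go below p = 0.1 (two-sided).

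The 9 genes and the gene lists were chosen with earlier results of these data known. Named genes are the 9, the genes of the sorted antigens, paralogs and Id genes, and in each list up to 3 risen and 3 fallen genes with the largest change among those past the threshold with a mean of at least 50 normalized counts. Some genes this rule would name are not reported here. Other named genes are listed for their role or were chosen after their values were seen. A floor of 3 counts per library was used for genes at 0 in a group. Promoters are from RefSeq (GRCm38.p6), and all 9 genes matched. Libraries with the same number did not deviate together (Pearson's r from -0.05 to 0.02 over 16520 genes).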

Additional observations from a re-analysis of the deposited data

How the results depend on the processing

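The number of the 7 tested genes called lower was 2 and became 1 with upper-quartile scaling and with the replicate block, and it ran from 1 to 2 when single libraries were left out, Notch1 being the gene lost. With the block the adjusted p of Notch1 was 0.0754, and the block changed no other call among the 7, while Hdac1 and Lfng lost theirs (adjusted p = 0.0686 and 0.058). The shared replicate numbers did not pair the libraries. Rag2 was the 1 gene past 2-fold, and the count ran from 0 to 1 when single libraries were left out, being 0 without Ctrl replicate 2 or l-FA replicate 2. No value changed sign. Over all tested genes the block called 7405 in place of 8336, and upper-quartile scaling called 4490 higher and 3795 lower and moved the median log2 fold change by 0.024. The causes were not tested.

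Depth limits Rag1 and Ebf1. Without a low-count filter their log2 fold changes were -0.08 (SE 0.96, adjusted p = 0.974) and 0.18 (SE 0.31, adjusted p = 0.783). Among genes named beside the 9, calls of Ikzf4, Ikzf5, Hdac1, Chd4, Lfng and Bach2 were lost in at least 1 alternative, and that of Ikzf2 was gained without Ctrl replicate 3. Xrcc5, Dclre1c and Rbpj were not followed through the alternatives.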

Other observations

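Natural killer and innate lymphoid genes, which share Id2 and Nfil3 as early factors, moved both ways among the 8 tested, 3 higher and 3 lower. Over all tested genes 25.5% were higher and 25.0% lower. The median log2 fold change of the list was -0.04. Rora, a factor of innate lymphoid cells, had 167, 161 and 169 counts in Ctrl and 309, 286 and 325 in l-FA, a log2 fold change of 0.81 (SE 0.080, adjusted p = 0.000326). Gzmb (granzyme B), named after its values were seen, had 4, 3 and 4 counts in Ctrl and 21, 22 and 26 in l-FA and rose by 2.53 (SE 0.26, adjusted p = 0.000366). Tbx21, the other gene that rose, is given below with the genes at 0 in a group. Gzmb and Tbx21 passed the low-count filter only through their l-FA libraries, so their place among the tested genes depends on their rise. Nfil3 fell by 0.67 (SE 0.13, adjusted p = 0.0057) and Klrb1c (NK1.1) by 1.54 (SE 0.33, adjusted p = 0.00779). Nkg7, a granule protein gene of cytotoxic cells, was abundant and fell from 10792, 10103 and 11214 counts to 6530, 6049 and 6153, a log2 fold change of -0.86 (SE 0.025, adjusted p = 4.3e-06).

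Several lymphoid genes were at 0 in every library of a group and present in every library of the other. They were chosen after their values were seen. How many of all genes show such a pattern was not counted, so it is not shown to be particular to lymphoid genes. Blk, a kinase of B cells, had no count in Ctrl and 13, 24 and 38 in l-FA, which is at least 8.40-fold higher against a floor of 3 counts per library. Dll1, a Notch ligand, had none in Ctrl and 13, 26 and 14 in l-FA, at least 5.91-fold higher. Tbx21 (T-bet), a factor of type 1 lymphocytes, had none in Ctrl and 16, 16 and 20 in l-FA, at least 5.79-fold higher. Cd22, an inhibitory receptor of B cells, had 26, 20 and 21 counts in Ctrl and none in l-FA, at least 7.44-fold lower. Other listed lymphoid genes were at 0 in all of 1 group, with a mean above 3 counts in the other. Fcrla, Ms4a1, Trac, Cr2, Cd8a and Dll3 were at 0 in l-FA, lower by at least 4.58, 3.13, 2.88, 2.57, 2.43 and 1.34-fold. Fcer2a, Il2ra and Ebf4 were at 0 in Ctrl, higher by at least 6.31, 2.65 and 1.66-fold. Genes of the B lineage at these low counts moved both ways.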
